A study of Homo sapiens with 6 samples.

Results

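The histone genes were read from the RNA-seq table of OVCAR5 and OVCAR5R by gene symbol. A row was taken where its symbol began with HIST1, HIST2, HIST3, HIST4, H2AF, H3F, or H1F, and H2AFZ was left out. Of 12308 rows, 24 were taken this way. They were 14 clustered histone genes (symbols beginning with HIST) and 10 replacement histone genes (the H2AF, H3F, and H1F symbols), of which H3F3AP4 is a processed pseudogene. No gene of HIST4 was among them. Clustered histone genes without a row, such as HIST2H3C, are not covered, so the clustered genes here are only a part of that class. Genes were tested where 3 or more of the 6 libraries reached a value of 1, which held for 13 of the 14 clustered and all 10 replacement genes. HIST2H3A did not reach it, and its values are given without a test.

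OVCAR5 is a BRCA wild-type ovarian cancer cell line that lacks p53, and OVCAR5R is its derivative resistant to Prex (prexasertib), an inhibitor of the checkpoint kinase CHK1. OVCAR5R had been selected from OVCAR5 in rising doses of Prex that reached 3 µM during 3 to 4 months, was kept at 2 µM, and was grown without Prex for 4 days or more ahead of use. OVCAR5 was the untreated parent, and so the comparison is of 1 resistant line with its 1 parent. Total RNA of 3 cultures of each line was sequenced. Whether OVCAR5R is a clone or a pool is not given in the sources used here.

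Histones are the proteins around which DNA is wound, with H2A, H2B, H3, and H4 in the core particle and H1 on the linker. Most genes for the core and linker histones lie in clusters, are used mainly in S phase, and give messages that end in a conserved stem-loop in place of a poly(A) tail. SLBP binds this stem-loop. Replacement histones are encoded by single genes elsewhere, are made throughout the cell cycle, and give polyadenylated messages. H2AFX is unusual in that its message can end either way, and several clustered genes also give longer polyadenylated messages.

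The 3' stem-loop is shown first, since it is the sequence that sets clustered histone messages apart. The GENCODE release 29 transcripts (GRCh38) were searched by sequence, on the sense strand only. The stem-loop was found in 9 of the 14 clustered genes and in 1 of the 10 replacement genes, H2AFX, against 44 of all 58721 genes (0.0749%). Of those 44 genes, 31 have HIST symbols, and only 9 of these 31 are members here. In the transcript sequences below, written 5′ to 3′, the capitals mark the 16 bases of the stem-loop, and 5 bases on either side are in lower case.
HIST1H2AC, chr6:26124664-26124689, plus strand: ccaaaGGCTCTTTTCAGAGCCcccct
HIST1H2BD, chr6:26158582-26158607, plus strand: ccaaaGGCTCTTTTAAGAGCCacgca
HIST1H4H, chr6:26285126-26285151, minus strand: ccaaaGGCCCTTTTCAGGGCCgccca
HIST1H2AG, chr6:27133510-27133535, plus strand: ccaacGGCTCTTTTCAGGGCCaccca
HIST2H2BF, chr1:149811880-149811905, minus strand: ccaaaGGCTCTTTTCAGAGCCacttc
HIST2H2AA4, chr1:149851569-149851594, plus strand: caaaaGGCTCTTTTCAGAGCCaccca
HIST2H3A, chr1:149853100-149853125, plus strand: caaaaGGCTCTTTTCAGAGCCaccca
HIST2H2BE, chr1:149886183-149886208, minus strand: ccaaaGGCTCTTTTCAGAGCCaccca
HIST3H2A, chr1:228457364-228457389, minus strand: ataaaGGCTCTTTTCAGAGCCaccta
H2AFX, chr11:119094893-119094918, minus strand: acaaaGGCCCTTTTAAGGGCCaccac
In 7 of these 9 clustered genes an annotated transcript ran on for more than 300 bases past the stem-loop, by as much as 1761 bases in HIST1H2AG and 1729 bases in HIST2H2BE. The polyadenylation signal AATAAA stood in a transcript's last 50 bases in 11 of the 14 clustered and 5 of the 10 replacement genes. Over all 58721 genes the share was 37.7%. These include non-coding genes and pseudogenes, so this share is not a matched background. HIST1H1C, HIST1H2BJ, HIST1H2BK, HIST2H4A, and HIST2H4B have no match in their annotated transcripts, and the exons of HIST1H2BK cover only 381 bases. The search used a pattern of 16 bases that allowed more than 1 base at some positions. A stem-loop outside this pattern, or one outside the annotated transcript, would be missed. A match is a description of the annotation and does not say which message was sequenced.

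The bases ahead of the start site are shown for the H2B genes, since ATTTGCAT, the octamer, is the element known for H2B promoters, and for HIST2H4A and HIST3H2A, whose values are taken up below. The windows are from RefSeq on GRCh38.p14 and run from 250 bases before to 50 bases after a gene's start, and 22 of the 24 genes have one. Both strands were searched. ATTTGCAT was found in 6 of 14 clustered genes (4 of the 5 H2B genes, and HIST1H2AC and HIST1H2AG on the opposite strand) and in 1 of 8 replacement genes, H3F3B, against 1.77% of 35116 promoters. TATAAA was found in 8 of 14 clustered and 3 of 8 replacement genes, against 11.5% of promoters, and CCAAT in 11 of 14 and 6 of 8, against 34.6%. The last 120 bases before the start follow, 5′ to 3′ on the gene's strand, with ATTTGCAT and TATAAA in capitals.
HIST1H2BJ, chr6:27132796-27132915, minus strand: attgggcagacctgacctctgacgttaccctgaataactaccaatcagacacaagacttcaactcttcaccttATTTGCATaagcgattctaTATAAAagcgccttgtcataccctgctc
HIST1H2BK, chr6:27146856-27146975, minus strand: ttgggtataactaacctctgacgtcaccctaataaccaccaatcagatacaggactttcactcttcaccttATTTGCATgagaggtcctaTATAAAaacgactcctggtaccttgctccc
HIST2H2BE, chr1:149886683-149886802, minus strand: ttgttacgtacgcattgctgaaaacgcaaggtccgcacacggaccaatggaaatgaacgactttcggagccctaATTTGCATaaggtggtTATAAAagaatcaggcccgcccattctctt
HIST2H2BF, chr1:149812371-149812490, minus strand: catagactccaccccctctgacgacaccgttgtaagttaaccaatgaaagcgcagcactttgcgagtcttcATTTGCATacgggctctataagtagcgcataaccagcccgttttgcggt
HIST1H2BD, chr6:26158001-26158120, plus strand: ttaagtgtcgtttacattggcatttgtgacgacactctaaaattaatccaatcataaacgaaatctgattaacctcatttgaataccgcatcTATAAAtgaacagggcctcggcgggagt
HIST2H4A, chr1:149832537-149832656, plus strand: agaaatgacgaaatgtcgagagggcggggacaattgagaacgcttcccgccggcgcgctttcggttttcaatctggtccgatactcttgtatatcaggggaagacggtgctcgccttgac
HIST3H2A, chr1:228457874-228457993, minus strand: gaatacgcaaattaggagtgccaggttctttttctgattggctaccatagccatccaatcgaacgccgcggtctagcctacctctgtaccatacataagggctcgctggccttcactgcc
HIST1H2BJ and HIST1H2AG stand head to head with 291 bases between them, and so their windows overlap.

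The OVCAR5 libraries held between 35826701 and 41311591 estimated reads on the listed genes, and the OVCAR5R libraries between 50295813 and 55065029. The values are a normalized signal that scales with reads and not with gene length. OVCAR5 replicate 2 stood apart from the other 5 libraries, with a correlation over all genes of 0.85 to 0.90 with them, against 0.92 to 0.96 among the rest. It was also the highest library for each of the 5 epithelial markers measured: EPCAM was 597 there and 11.9 to 31.7 elsewhere, and KRT19 was 1341 and 3.09 to 10.7. KRT8 and KRT18 were at 1031 or above in every library, PAX8 was at 4.38 to 11.4, and WT1 was at 0.73 or below. Of these ovarian carcinoma markers, PAX8, MSLN (6.11), and FOLR1 (16.5) were also highest in OVCAR5 replicate 2, and WT1 was lowest there. Of the markers of other cells, CD14 was at 2.02 to 20.2, COL1A1 at 1.29 to 15.2, and PDGFRB at 1.90 or below. CD14 and COL1A1 were highest in OVCAR5 replicate 2 too, and PDGFRB was lowest there, so the high values were not limited to epithelial markers. The part of these differences in the histone values was not tested. In bulk RNA, fewer cells that make a message and less of it per cell cannot be told apart.

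None of the 13 clustered histone genes tested passed an adjusted p of 0.05 between OVCAR5 and OVCAR5R. Their values differed widely between cultures of the same line. By their median the clustered genes were high in 2 libraries, OVCAR5 replicate 2 and OVCAR5R replicate 3. The median of the replacement genes was high in the first of these but not in the second. Each library was summarized by the median over genes of log2(value + 1) minus the gene's mean over the 6 libraries. For clustered genes this deviation was -0.34, 0.77, and -0.20 in OVCAR5 replicates 1, 2, and 3. In OVCAR5R replicates 1, 2, and 3 it was -0.42, -0.42, and 1.21. For replacement genes it was -0.14, 0.80, and 0.00 in OVCAR5 and 0.06, -0.08, and -0.18 in OVCAR5R. The medians of both classes were above 0 in OVCAR5 replicate 2, although HIST2H4B, HIST2H2BF, HIST1H4H, and H2AFV were lower there than the mean of the other OVCAR5 libraries. The class medians differed by 1.39 in OVCAR5R replicate 3, where the difference of the medians in the other 5 libraries was between -0.48 and -0.04. The values of the 14 clustered genes summed to 65.7, 174, and 78.1 in OVCAR5 and to 59.4, 64.6, and 214 in OVCAR5R. Those of the 10 replacement genes summed to 1849, 2844, and 2096 in OVCAR5 and to 1871, 1750, and 1954 in OVCAR5R.

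**Figure D1:**
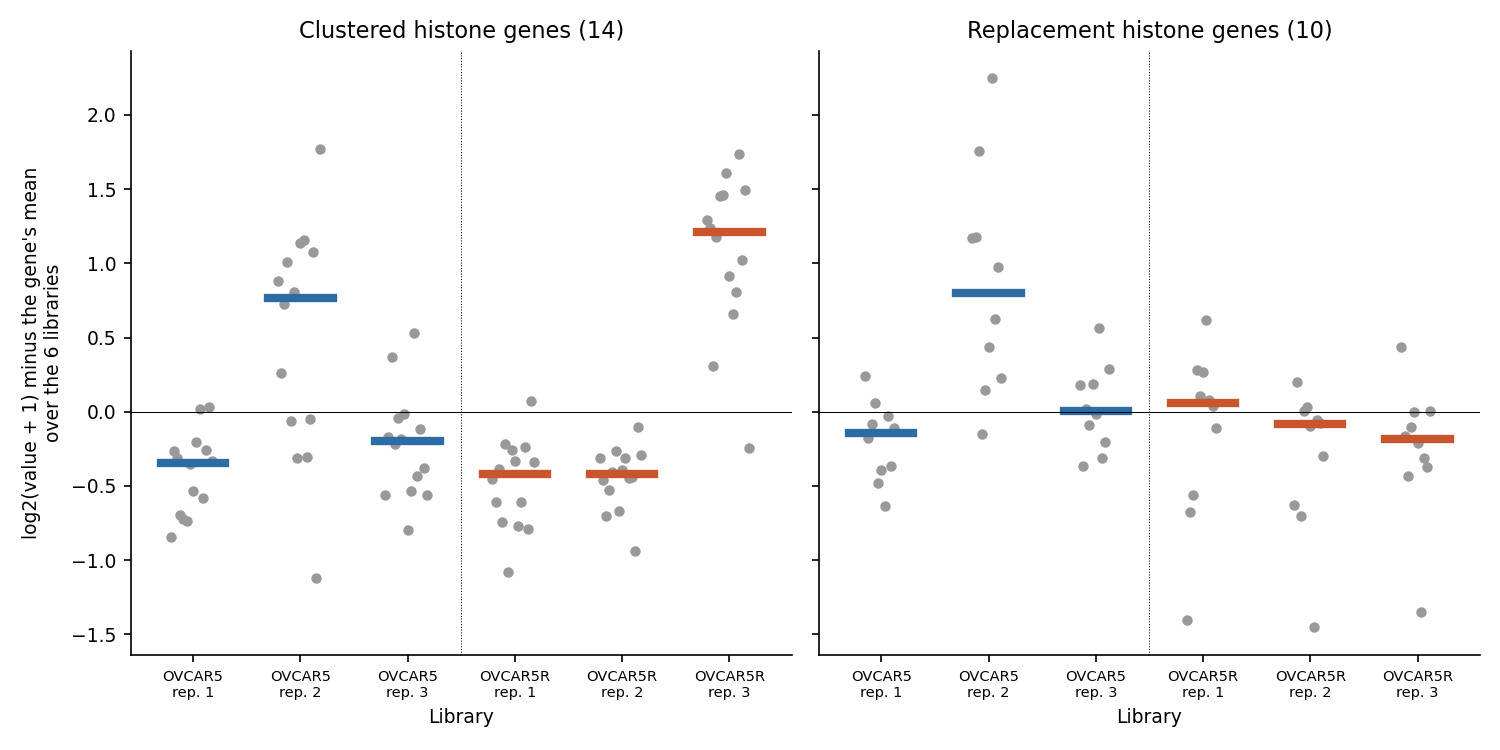
Each grey point is a gene, plotted as log2(value + 1) minus the gene's mean over the 6 libraries (vertical axis) in each library (horizontal axis), with clustered genes on the left and replacement genes on the right. Bars are medians over genes, blue for OVCAR5 and orange for OVCAR5R, and the clustered genes stand high in OVCAR5 replicate 2 (0.77) and OVCAR5R replicate 3 (1.21), whereas the replacement genes stand high in OVCAR5 replicate 2 (0.80) and not in OVCAR5R replicate 3 (-0.18).

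The pattern was counted gene by gene, as a description, since the libraries were singled out after their values were seen. OVCAR5R replicate 3 was the highest of the 6 libraries for 8 of the 13 clustered genes tested, and OVCAR5 replicate 2 was the highest for the other 5. Over all 11766 genes tested these shares were 13.4% and 26.9%. Of replacement genes, 0 of 10 were highest in OVCAR5R replicate 3 and 7 were highest in OVCAR5 replicate 2. On the log2(value + 1) scale, OVCAR5R replicate 3 lay at least 2-fold above the mean of the other OVCAR5R libraries in 11 of 13 clustered genes and in 1 of 10 replacement genes, H1F0, against 2.18% of all genes. OVCAR5 replicate 2 lay that far above the other OVCAR5 libraries in 7 of 13 clustered and 4 of 10 replacement genes, against 7.97% of all genes. Both held for 6 clustered genes (HIST1H1C, HIST1H2BD, HIST1H2BK, HIST2H2AA4, HIST2H2BE, and HIST2H4A) and no replacement gene, against 0.68% of all genes. The median SD between libraries of a line was 0.66 in OVCAR5 and 1.00 in OVCAR5R for clustered genes on this log2 scale. It was 0.52 and 0.21 for replacement genes, and 0.34 and 0.25 for all genes.

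HIST1H1C (chr6:26055787-26056428, minus strand), which encodes an H1 subtype, was the clustered linker histone gene analysed. It had values of 5.85, 21.7, and 7.32 in OVCAR5 replicates 1, 2, and 3 and of 7.97, 8.91, and 29.2 in OVCAR5R replicates 1, 2, and 3. OVCAR5 replicate 2 and OVCAR5R replicate 3 were each at least 2-fold above the rest of their line, and the lines overlapped. OVCAR5R against OVCAR5 gave a log2 fold change of 0.35 (standard error, SE, 0.59, adjusted p = 0.872 from limma). Its estimated reads were whole numbers in all 6 libraries, from 240 to 1565, and only 0.82% of its 31-base stretches occur in another gene.

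The 4 clustered H2A genes did not move as one. HIST1H2AC was at 8.39, 12.5, and 9.01 in OVCAR5 and at 6.38, 7.19, and 25.6 in OVCAR5R, with the highest value in OVCAR5R replicate 3. HIST2H2AA4 was at 3.27, 12.6, and 2.54 and at 3.90, 3.69, and 10.6, high in one library of each line. Of its 31-base stretches 97.2% occur in HIST2H2AA3, so reads of these copies cannot be told apart over most of the gene. HIST3H2A was at 6.80, 32.5, and 5.68 in OVCAR5 and at 6.77, 7.02, and 7.29 in OVCAR5R. It was thus the exception among the clustered genes, since OVCAR5R replicate 3 lay 1.06-fold above the mean of the other OVCAR5R libraries for it, against 2.11-fold to 8.70-fold for the 13 others. HIST3H2A (chr1:228456979-228457873) lies far along chromosome 1 from the HIST2 genes. It had a log2 fold change of -0.59 (SE 0.57, adjusted p = 0.758 from limma), which was 0.15 without OVCAR5 replicate 2. HIST1H2AG, at 3.17, 7.53, and 5.66 and at 2.95, 2.17, and 5.39, had a log2 fold change of -0.52.

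All 5 clustered H2B genes were higher in OVCAR5R replicate 3 than in the other OVCAR5R libraries. HIST1H2BK was at 5.34, 17.5, and 8.30 in OVCAR5 and at 4.00, 7.82, and 28.1 in OVCAR5R. Other genes hold 86.3% of its 31-base stretches, with H2BFS alone holding 74.4%, so its values may include reads of these genes. HIST1H2BD was at 6.53, 23.5, and 9.50 and at 6.28, 7.45, and 26.5. HIST1H2BJ was low, at 1.02, 2.20, and 2.26 in OVCAR5 and at 1.87, 1.52, and 8.17 in OVCAR5R. For HIST1H2BK and HIST1H2BD, one library of each line stood high, and for HIST1H2BJ only OVCAR5R replicate 3 did. HIST2H2BE was at 4.60, 13.4, and 3.45 and at 2.79, 4.18, and 9.19. HIST2H2BF, at 5.80, 4.44, and 8.73 and at 3.41, 3.94, and 10.8, differed from it in that OVCAR5 replicate 2 was the lowest of its line, and 29.6% of its 31-base stretches occur in other genes. The sum of the 5 genes was 23.3, 61.0, and 32.2 in OVCAR5 and 18.4, 24.9, and 82.7 in OVCAR5R. The log2 fold changes of the 5 genes ran from -0.28 for HIST2H2BE to 0.55 for HIST1H2BJ (adjusted p = 0.758 from limma), with 2 above and 3 below 0.

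The 3 clustered H4 genes and the H3 gene were raised in OVCAR5R replicate 3, and of the H4 genes only HIST2H4A stood high in OVCAR5 replicate 2. HIST1H4H was at 2.66, 2.75, and 3.62 in OVCAR5 and at 2.90, 1.94, and 13.2 in OVCAR5R, with whole estimated reads in all 6 libraries. HIST2H4A was at 7.67, 20.9, and 8.56 and at 5.01, 4.42, and 20.1. HIST2H4B was at 4.17, 1.33, and 2.90 and at 4.34, 3.72, and 13.2, so its OVCAR5 replicate 2 was the lowest of all where that of HIST2H4A was the highest. HIST2H4A and HIST2H4B encode the same protein in copies of which 98.6% and 97.2% of 31-base stretches are shared, and the bases shown for HIST2H4A are also those before HIST2H4B. Reads of the pair cannot be told apart over most of their length, and their sum was 11.8, 22.2, and 11.5 in OVCAR5 and 9.35, 8.14, and 33.4 in OVCAR5R. The sum was high in one library of each line. HIST2H4B had the highest log2 fold change of the clustered genes, 0.98 (SE 0.50, adjusted p = 0.537 from limma), and HIST2H4A had -0.46 (SE 0.58). HIST2H3A, at 0.44, 1.08, and 0.60 and at 0.83, 0.59, and 6.18, overlaps HIST2H4B by 230 bases on the opposite strand and shares all of its 31-base stretches with HIST2H3C. Whether the counting used strand is not given in the sources used here.

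Clustered genes of both main clusters took part. The 7 members of HIST1 on chromosome 6 had median deviations of 0.72 in OVCAR5 replicate 2 and 1.29 in OVCAR5R replicate 3, and the 6 members of HIST2 on chromosome 1 had 0.51 and 0.97. Non-histone genes within 2 Mb of these members did not stand out in the same libraries. The median deviation of the 34 such genes tested around HIST1 was 0.17 in OVCAR5 replicate 2 and -0.05 in OVCAR5R replicate 3, and that of the 50 around HIST2 was -0.03 and 0.13. The 205 non-histone genes tested with less than 1 kb of exons had 0.34 and -0.17. By these medians the clustered genes stood high in OVCAR5R replicate 3 where their neighbours and short genes did not. In OVCAR5 replicate 2 the short genes stood above 0 as well. The short genes were not matched to the clustered genes by value or length. The exons of the clustered genes cover 381 to 3196 bases, with a median of 1662. The part of length or low values was not tested.

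**Figure D2:**
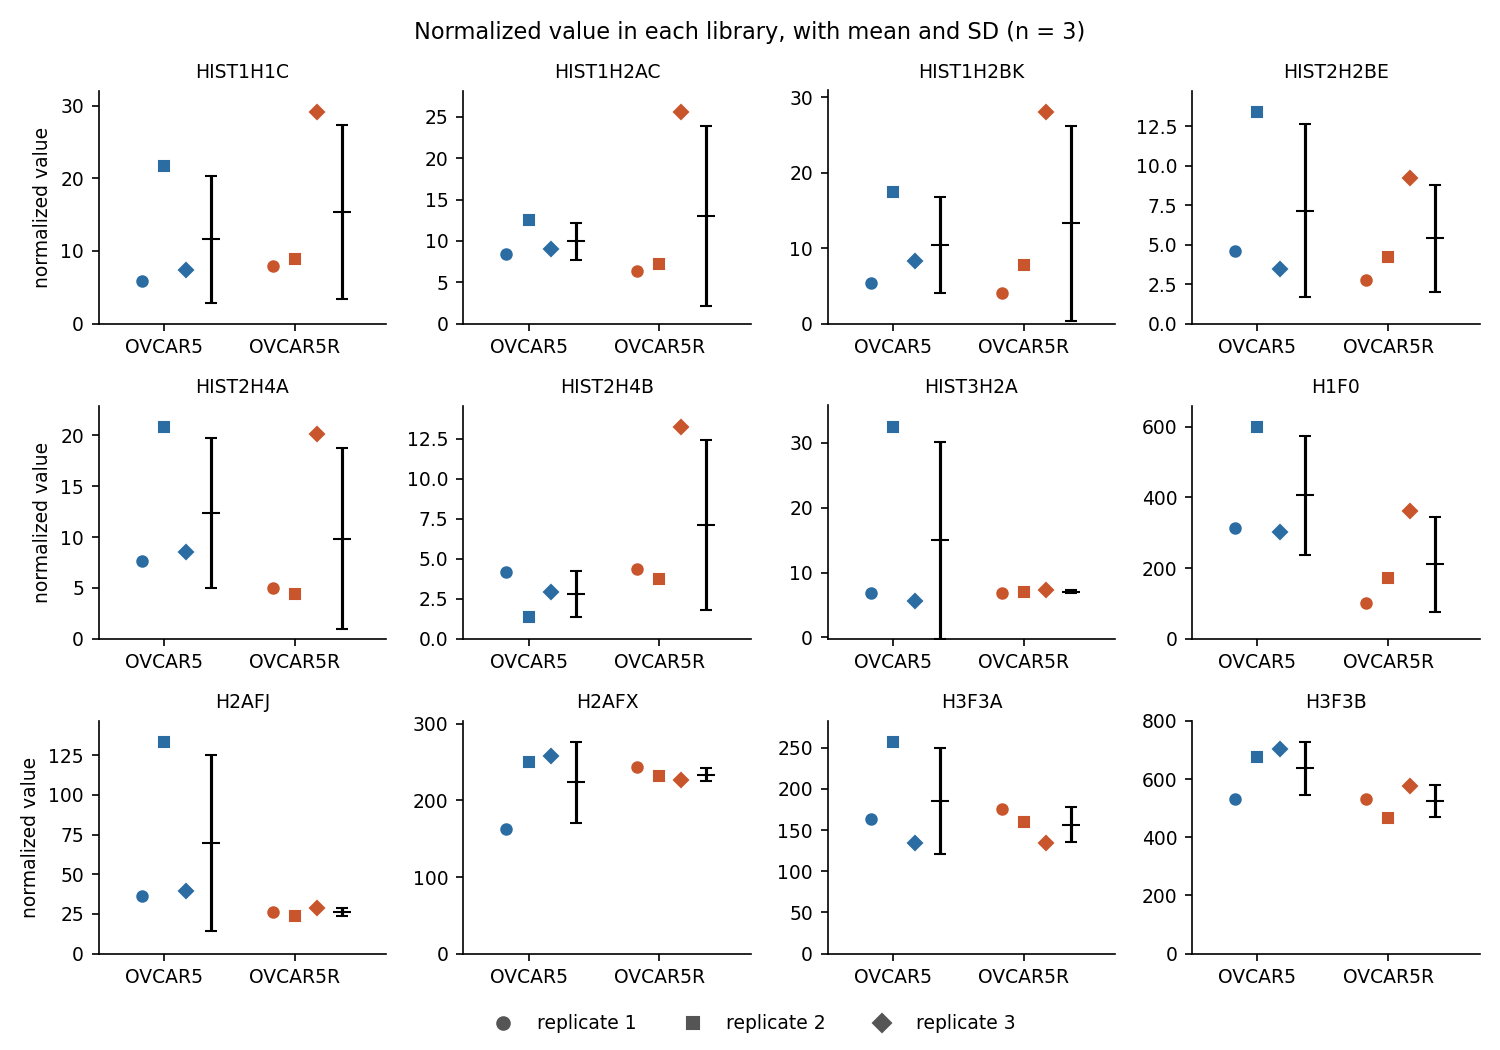
Normalized value (vertical axis, a scale of its own in each panel) of 12 histone genes in the 3 OVCAR5 (blue) and 3 OVCAR5R (orange) libraries, with the replicate given by the marker and the mean and SD of a line by the black bar. HIST1H1C, HIST1H2BK, HIST2H2BE, and HIST2H4A have one high library in each line, HIST3H2A is high in OVCAR5 replicate 2 only (32.5), and H2AFJ is the gene of the 12 whose lines do not overlap.

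Replacement histones had the higher values per length. Divided by exon length in kb, the mean value in OVCAR5 ran from 7.53 for H2AFY2 to 173 for H1F0 with a median of 63.7, and that of clustered genes from 0.43 for HIST2H3A to 27.3 for HIST1H2BK with a median of 4.62. In OVCAR5R the medians were 53.4 and 4.65. These levels depend on annotated exons, which for H2AFY cover 17730 bases over all transcripts. They also depend on how RNA was selected, which is not given in the sources used here. Whether messages without a poly(A) tail were captured was not tested, so the values do not give the abundance of all messages of a class. Values of clustered genes rested on 18.1 to 1565 estimated reads per library and those of replacement genes on 85.0 to 30939.

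Of the replacement linker histones, H1F0, which is known to accumulate in cells that stop dividing, was lower in 2 of the OVCAR5R libraries. It was at 314, 600, and 302 in OVCAR5 and at 100, 172, and 361 in OVCAR5R. The lines overlapped because OVCAR5R replicate 3 lay above OVCAR5 replicates 1 and 3. H1F0 had a log2 fold change of -1.06 (SE 0.47, unadjusted p = 0.054, adjusted p = 0.489 from limma), and -1.55 without OVCAR5R replicate 3 (adjusted p = 0.485). H1F0 was the replacement gene with high values in the same 2 libraries as the clustered genes. H1FX, the other replacement H1 gene, was at 85.4, 220, and 74.7 and at 60.3, 111, and 86.2, with OVCAR5 replicate 2 the highest, and had a log2 fold change of -0.42 that was 0.06 without that library.

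Among the replacement H2A genes, H2AFJ was the only histone gene whose 6 libraries did not overlap between the lines. H2AFJ (chr12:14774383-14778002, plus strand) was at 36.6, 133, and 39.2 in OVCAR5 (69.8 ± 55.2, SD, n = 3) and at 26.0, 23.5, and 28.5 in OVCAR5R (26.0 ± 2.54, SD, n = 3). Every OVCAR5R library lay below every OVCAR5 library, although OVCAR5 replicate 2 was far above the rest. H2AFJ had a log2 fold change of -1.13 (SE 0.46, 95% interval -2.19 to -0.06, unadjusted p = 0.04, adjusted p = 0.452 from limma), or -0.53 without OVCAR5 replicate 2. Such separation in the lower direction was seen in 8.18% of all genes, and an exact permutation test of 3 against 3 libraries cannot go below p = 0.10.

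H2AFX encodes the H2A variant that is phosphorylated at DNA breaks. It was at 162, 250, and 258 in OVCAR5 and at 244, 231, and 226 in OVCAR5R, with a log2 fold change of 0.10 (95% interval -0.44 to 0.63). OVCAR5R replicate 3 was its lowest OVCAR5R library. H2AFV, a close relative of H2AFZ, was at 347, 300, and 312 and at 404, 334, and 310, with a log2 fold change of 0.12 (95% interval -0.33 to 0.57). H2AFY and H2AFY2 encode the macroH2A histones, which are known from silent chromatin. H2AFY was at 188, 335, and 245 and at 298, 231, and 214, with a log2 fold change of -0.02. H2AFY2 was at 3.48, 32.0, and 9.28 in OVCAR5 and at 9.69, 1.54, and 1.73 in OVCAR5R, and its log2 fold change of -1.45 had the widest interval of all members, from -3.29 to 0.38 (adjusted p = 0.564 from limma). The lines overlapped for H2AFY2 and H2AFY alike.

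H3F3A and H3F3B encode the same replacement H3 protein. H3F3B had the highest value of the 24 members in every library, at 533, 675, and 704 in OVCAR5 and at 532, 467, and 577 in OVCAR5R, with a log2 fold change of -0.27 (95% interval -0.76 to 0.21). H3F3A was at 163, 257, and 134 and at 176, 160, and 134, with a log2 fold change of -0.19 (95% interval -0.82 to 0.43). In OVCAR5R replicate 3, H3F3B lay 1.15-fold above and H3F3A 0.80-fold of the mean of the other OVCAR5R libraries. H3F3AP4, at 15.5, 41.0, and 17.5 and at 20.9, 19.3, and 15.5, shares all of its 31-base stretches with H3F3A, and reads of the 2 cannot be told apart over the pseudogene.

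Between the lines, 0 of the 23 histone genes tested had an adjusted p under 0.05, against 14 of 11766 genes (0.119%), 2 higher and 12 lower in OVCAR5R. At an unadjusted p under 0.05 it was 1 histone gene, H2AFJ, which was lower, against 6.25% of all genes that were lower at this level and 4.14% that were higher. Adjusted p-values from limma ran from 0.537 to 0.983 for clustered and from 0.452 to 0.988 for replacement genes. By their fold change 7 of 13 clustered genes were above 0 and 6 below, with a median log2 fold change of 0.08, and 2 of 10 replacement genes were above and 8 below, with a median of -0.27, against 5791 above and 5975 below among all genes and a median of -0.01. By subfamily, the clustered genes above 0 were 1 of 1 for H1, 2 of 4 for H2A, 2 of 5 for H2B, and 2 of 3 for H4.

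The direction of the clustered genes depended on single libraries. Their median log2 fold change of 0.08 was 0.41 without OVCAR5 replicate 2, -0.61 without OVCAR5R replicate 3, and -0.18 without both. It was also below 0 without OVCAR5 replicate 1, at -0.20. For replacement genes the corresponding medians were 0.07, -0.25, and 0.10. Without OVCAR5R replicate 3, 1 clustered gene (HIST2H4A, unadjusted p = 0.048) and 1 replacement gene (H1F0, unadjusted p = 0.006) were lower at an unadjusted p under 0.05 from limma, against 5.11% of all genes, and neither passed the adjusted threshold. With both libraries left out, 0 of 23 members and 0 of 11766 genes had an adjusted p under 0.05, and at an unadjusted p under 0.05 there were H1F0 and H2AFJ, both lower, against 5.92% of all genes that were lower. The 4 remaining libraries did not overlap in the lower direction for 4 clustered genes (HIST1H2AC, HIST1H2AG, HIST2H2BF, and HIST2H4A) and 3 replacement genes (H1F0, H2AFJ, and H3F3B), against 19.2% of all genes. In the higher direction this was so for HIST1H1C, HIST2H2AA4, and H3F3AP4, against 20.1%.

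**Figure D3:**
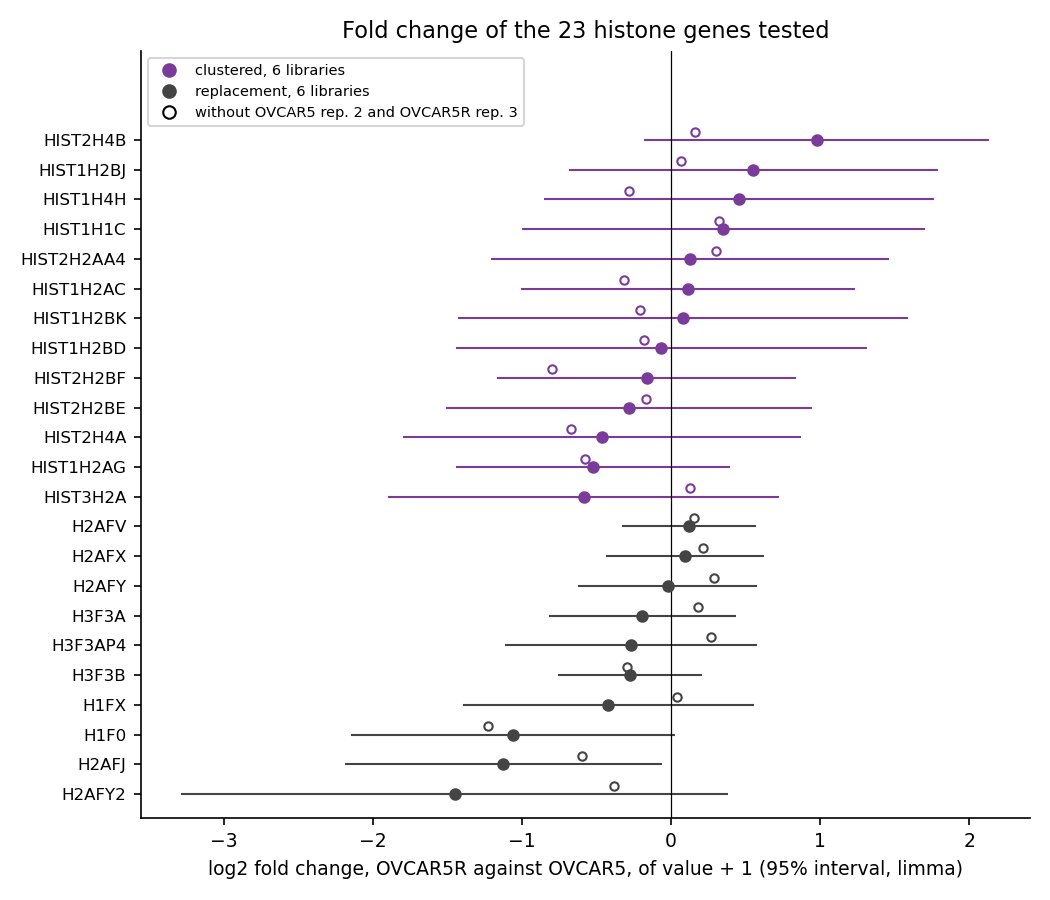
Log2 fold change of value + 1, OVCAR5R against OVCAR5 (horizontal axis), of the 23 histone genes tested, clustered in purple and replacement in grey, with 95% intervals from limma over 6 libraries. Open circles are the fold changes without OVCAR5 replicate 2 and OVCAR5R replicate 3, and every interval except that of H2AFJ (-2.19 to -0.06) spans 0.

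By their medians, the genes that serve histone messages and histones did not follow the clustered genes from library to library. The median deviation of 22 genes for histone gene transcription and 3' end processing was -0.21, -0.17, and 0.08 in OVCAR5 and 0.16, 0.11, and 0.08 in OVCAR5R. OVCAR5R replicate 3 was the highest library for 7 of these 22 genes, against 13.4% of all genes, and OVCAR5 replicate 2 for 0. OVCAR5R replicate 3 was the highest for 0 of 16 genes for histone mRNA decay and 1 of 29 histone chaperones. SLBP, the stem-loop binding protein, was at 67.1, 74.8, and 84.0 in OVCAR5 and at 78.4, 77.0, and 107 in OVCAR5R, with a log2 fold change of 0.21 (adjusted p = 0.775 from limma). It was highest in OVCAR5R replicate 3 and was not raised in OVCAR5 replicate 2. NPAT, the coactivator of clustered histone genes, was at 34.6, 16.1, and 26.0 and at 35.0, 30.3, and 35.1, with its lowest value in OVCAR5 replicate 2. Of this list 19 genes were above 0 and 3 below by their fold change, and 0 passed an adjusted p of 0.05. At an unadjusted p under 0.05, 1 of 22 was higher, against 4.14% of all genes. This was NCBP2, a subunit of the cap-binding complex. NCBP2, NCBP1, and ERI1 were higher in every OVCAR5R library than in every OVCAR5 library, as were 8.4% of all genes. For NCBP2 the OVCAR5 mean was 196 ± 49.8 and the OVCAR5R mean was 294 ± 49.2 (SD, n = 3). Without OVCAR5 replicate 2, the log2 fold change went from 0.60 to 0.37 for NCBP2. It went from 0.43 to 0.27 for NCBP1 and from 0.47 to 0.21 for ERI1.

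Of the 16 genes for histone mRNA decay, 7 were above and 9 below 0, with 0 past either threshold. LSM2 and ERI1 did not overlap in the higher direction, 2 of 16 genes against 8.4% of all genes. Of the 29 histone chaperones, 18 were above and 11 below, and 0 passed an adjusted p of 0.05. CHAF1B, a subunit of the chaperone that loads histones behind the replication fork, was at 24.6, 21.9, and 37.3 in OVCAR5 and at 41.6, 42.7, and 42.9 in OVCAR5R, and did not overlap (unadjusted p = 0.032, adjusted p = 0.429 from limma). DNAJC9 also lay higher in every OVCAR5R library, which makes 2 of 29 chaperones against 8.4% of all genes. CABIN1, a subunit of the HIRA complex, which deposits the protein of H3F3A and H3F3B, was at 62.9, 62.2, and 60.3 in OVCAR5 and at 24.6, 27.8, and 36.6 in OVCAR5R. The lines did not overlap for CABIN1, the 1 chaperone of 29 that was separated in the lower direction, against 8.18% of all genes, and its log2 fold change of -1.05 (SE 0.21) had an adjusted p of 0.181 from limma.

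By its median, the S phase list did not follow the clustered histones. Its 43 genes, of the Seurat package, had a median deviation of -0.26, -0.35, and 0.15 in OVCAR5 and of 0.27, 0.12, and 0.14 in OVCAR5R. By this median OVCAR5 replicate 2 was the lowest library and OVCAR5R replicate 3 was near its 2 companions. OVCAR5R replicate 3 was the highest library for 10 of the 43 genes, against 13.4% of all genes. Of these genes 34 were above 0 and 9 below, with 0 past an adjusted p of 0.05, and a median log2 fold change of 0.29. At an unadjusted p under 0.05, 5 of 43 were higher and none lower, against 4.14% and 6.25% of all genes. DSCC1, UNG, and CHAF1B had the lowest p-values among them, with log2 fold changes of 0.91, 0.59, and 0.62. The 54 genes of the G2/M list had -0.12, -0.47, and 0.23 in OVCAR5 and 0.28, 0.01, and 0.09 in OVCAR5R. Of them 44 were above 0 and 10 below, 0 passed an adjusted p of 0.05, and 2 higher genes (DLGAP5 and TTK) and 1 lower gene (CBX5) passed an unadjusted p of 0.05, against the same 4.14% and 6.25%. KIF2C also lay higher in every OVCAR5R library, as did 5 of the 54 genes in all, against 8.4% of all genes. CCNB1, which encodes CyclinB1, was at 175, 193, and 289 and at 297, 189, and 131, with its lowest value in OVCAR5R replicate 3 and a log2 fold change of -0.14 (adjusted p = 0.92 from limma). SLBP, CHAF1B, and ERI1 are among the genes on more than 1 of these lists. ERI1 is counted both for 3' end processing and for histone mRNA decay.

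**Figure D4:**
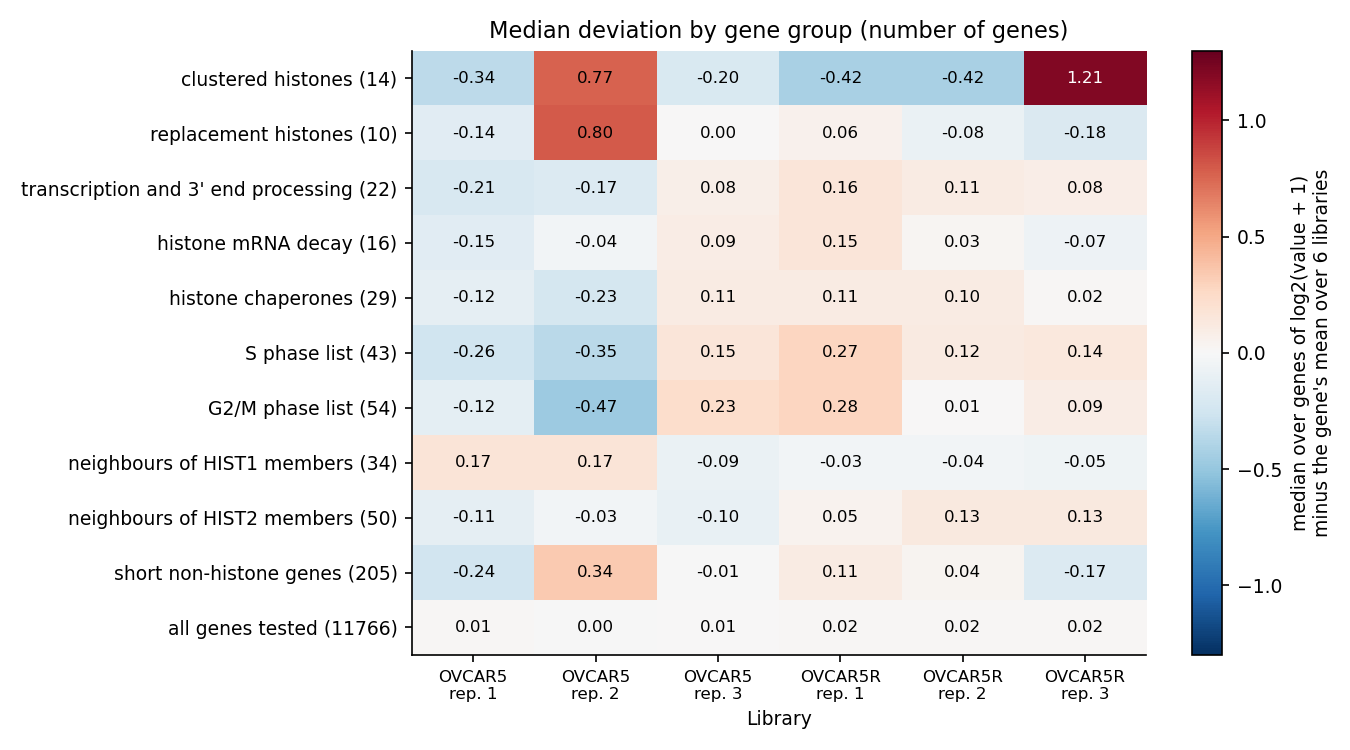
Median over genes of log2(value + 1) minus the gene's mean over the 6 libraries (colour and printed value) for each gene group (rows, with the number of genes) in each library (columns). Of the groups drawn, clustered histones have the highest value in OVCAR5R replicate 3 (1.21), where the S phase list has 0.14 and the replacement histones -0.18.

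Transcripts that lack a poly(A) tail were looked at after these values were seen, since messages that end in the stem-loop lack one too and the selection of RNA for the libraries is not given in the sources used here. RN7SL1, the RNA of the signal recognition particle, was at 17.7, 368, and 178 in OVCAR5 and at 627, 27.1, and 193 in OVCAR5R. SNORD3A, a small nucleolar RNA, was at 0.80, 4.67, and 0.83 and at 2.43, 2.15, and 1.20. Both were high in OVCAR5 replicate 2 within their line, and OVCAR5R replicate 3 was not the highest OVCAR5R library for either. Whether the clustered values came from polyadenylated or stem-loop messages was not tested.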

How the data were processed

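Total RNA of triplicate OVCAR5 and OVCAR5R cultures was sequenced. The authors deposited 1 table of normalized signal on a linear scale, by gene symbol. The methods state a quartile normalization and a log transformation ahead of the authors' analysis, and do not say how the deposited linear values relate to these steps. The submitters' processing notes name build hg38, and the library kit, strandedness, aligner, counter, and annotation are not given in the sources used here. Of 12309 rows, an identical copy was removed. Within a library the signal moves in steps, from which estimated reads were derived. Since 67.4% to 72.2% of values per library were whole multiples, the values were not treated as counts. Depth was 35826701 to 55065029 estimated reads.

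Values were taken as log2(value + 1), a scale that understates the change of low genes. The 11766 genes that reached a value of 1 in 3 or more of 6 libraries were tested by limma 3.58.1 in R 4.3.3 (lmFit, eBayes with trend, two-sided, no covariates), with Benjamini-Hochberg adjustment over all of them at 0.05. The fit was tested on simulated data. Gene positions, exon lengths, transcripts, and shared 31-base stretches came from GENCODE release 29 (GRCh38), in which all 24 members were found by symbol, and promoters from RefSeq (GRCh38.p14). Clustered and replacement genes were described by medians, with no test. Tables and figures were made in Python 3.11.15 with matplotlib 3.10.9.

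The members and lists were chosen with earlier results of these data known. Named were the replacement histones, the clustered genes with the 5 highest and 5 lowest fold changes and 5 highest means, and, of the supply lists, up to 3 genes a direction with no overlap or an unadjusted p under 0.05, with SLBP, NPAT, and CCNB1 in any case. HIST1H2BD, HIST2H2BE, and other clustered genes were added so that all members are shown, and the neighbours, short genes, and RNAs without a poly(A) tail were chosen after values were seen. Results were recomputed with quantile normalization, scaling to the 75th percentile, a pseudocount of 0.1, 2 other filters, no trend, a replicate block, and each library left out, with 2 libraries left out together added after seeing the data. The p-values measure the spread between cultures of 1 line each.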

Additional observations from a re-analysis of the deposited data

How the results depend on the processing

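No histone gene passed an adjusted p of 0.05 in any of the 14 alternatives, in which the lowest adjusted p of a member was 0.286. Of 322 fold changes of members under the alternatives, 35 changed sign, in 15 of the 23 genes. Quantile normalization gave 0.0038 for HIST1H2BD and scaling to the 75th percentile gave 0.0042 for H2AFY. With OVCAR5 replicate 2 and OVCAR5R replicate 3 both left out, an alternative added after seeing the data, the log2 fold changes that changed sign were 0.037 for H1FX, 0.29 for H2AFY, 0.18 for H3F3A, 0.27 for H3F3AP4, -0.32 for HIST1H2AC, -0.21 for HIST1H2BK, -0.28 for HIST1H4H, 0.13 for HIST3H2A, and 0.075 for CCNB1, with 2 members at an unadjusted p under 0.05 against 1027 of 11766 genes, and 0 genes in all at an adjusted p under 0.05. Leaving out 1 library at a time, the log2 fold change ran from -0.71 to 0.061 for H1FX, from -0.12 to 0.21 for H2AFX, from -0.22 to 0.19 for H2AFY, from -0.40 to 0.072 for H3F3A, from -0.52 to 0.15 for H3F3AP4, from -0.21 to 0.88 for HIST1H1C, from -0.48 to 0.45 for HIST1H2AC, from -0.67 to 0.42 for HIST1H2BD, from -0.038 to 0.89 for HIST1H2BJ, from -0.63 to 0.64 for HIST1H2BK, from -0.24 to 0.90 for HIST1H4H, from -0.30 to 0.73 for HIST2H2AA4, from -0.68 to 0.23 for HIST2H2BE, from -0.61 to 0.10 for HIST2H2BF, from -1.01 to 0.15 for HIST3H2A, and from -0.44 to 0.15 for CCNB1. It also moved the members at an unadjusted p under 0.05 from 1 to between 0 and 2, against 864 to 1714 of 11766 genes, and all genes at an adjusted p under 0.05 from 14 to between 0 (without OVCAR5R replicate 3) and 29 (without OVCAR5 replicate 2). The median log2 fold change ran from -0.61 to 0.41 for clustered and from -0.46 to 0.07 for replacement genes, and their difference from -0.36 to 0.61.

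Whether the replicate numbers pair the cultures is not given in the sources used here. Deviations of same-numbered libraries had correlations of -0.00, 0.18, and -0.12, against -0.19 to 0.25 for libraries with different numbers. These values show no sign of pairing but cannot settle how the cultures were handled. With the replicate number as a block, 2 of 23 members (H1F0 and H2AFJ) had an unadjusted p under 0.05, against 1305 of 11766 genes, and 5 genes in all had an adjusted p under 0.05. With 3 cultures a line, the spread between cultures limits what can be called for clustered genes, and the cause of that spread was not tested.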
